A study of Mus musculus with 18 samples.

Results

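Receptors for scavenging and for the uptake of dying cells were followed through this series of mouse macrophages. By these receptors a macrophage binds and takes up modified lipoproteins, microbes, plasma proteins and dying cells. The members were the rows of the deposited count table named Mrc1, Cd163, Msr1, Marco, Cd36, Stab1, Mertk, Axl, Scarb1 and Olr1, which is 10 of 21734 protein-coding genes, and all 10 stayed among the 11357 genes that passed the filter on low counts. Bone marrow-derived macrophages (BMDMs), cells grown out of marrow with the growth factor M-CSF, were sequenced in 18 libraries, 3 for each of 6 groups. Wild-type (WT) mice carried an unaltered mir-146a locus, KO mice lacked mir-146a, and 3′F mice carried a mir-146a whose mature product keeps its 5′ part, with the seed, while its 3′ part is exchanged. By the labels, the mice of all 6 groups were 6 to 7 months old and of a 129/B6 mix. Their marrow was cultured for 8 to 9 days with 10 ng/ml M-CSF. The study's methods give a younger age for the mice of its proteomic lysates. Because the study describes each replicate as divided between sequencing and proteomics, the age of the donors is uncertain. BMDMs of each genotype then received fresh medium, either plain (resting) or with 1 ng/ml LPS, the bacterial lipopolysaccharide sensed by TLR4, and were harvested after 16 h. Both mutant alleles were made by targeting embryonic stem cells, were present in every cell of homozygous animals, and were bred as separate lines, so a difference between KO and 3′F is also a difference between lines. Marrow came from 3 mice of each genotype. The labels give a resting and an LPS culture of a genotype the same replicate number, but do not say whether it marks a mouse. The main test took no pairing, so its p-values measure the spread between these cultures.

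Scavenger receptors are a set of structurally unrelated proteins grouped by their broad taste for polyanionic ligands. Class A members (Msr1, Marco) have collagenous stems and bind modified lipoproteins and bacteria, class B members (Cd36, Scarb1) span the membrane at both ends and handle lipids, and Olr1 is the lectin-like receptor of oxidized LDL. Mrc1 and Cd163 clear mannosylated glycoproteins and haptoglobin-bound hemoglobin, and Stab1 is an endocytic receptor that can bind phosphatidylserine. The receptor tyrosine kinases Mertk and Axl recognise apoptotic cells through bridging proteins, Gas6 for both and Pros1 for Mertk. A microRNA pairs with messenger RNAs mainly through its seed, and miR-146a is an LPS-inducible brake on the signalling downstream of TLR4.

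The seed is the feature that WT and 3′F miR-146a share, so both sequences are shown with the seed (bases 2 to 8 from the 5′ end) in capitals. The mouse miR-146a sequence is from RefSeq (GRCm38.p6, chr11:43374435-43374456, minus strand), and the 3′F sequence is that of the synthetic mimic the study designed, without its overhang. The paralog miR-146b (chr19:46342790-46342811, plus strand), whose gene was left intact in all 6 groups, has the same seed.
mmu-miR-146a-5p: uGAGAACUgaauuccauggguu
mmu-miR-146b-5p: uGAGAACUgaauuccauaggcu
3′F miR-146a mimic: uGAGAACUgaauaagugucc
The 3′F sequence was identical to miR-146a over the 12 bases at the 5′ end and differed at 8 of the 20 bases compared, and miR-146b differed from miR-146a at 2 bases. The longest annotated 3′ UTR of each member (GENCODE M21, GRCm38) was then read for the letters AGTTCTCA (an 8mer match), AGTTCTC or GTTCTCA (7mer matches), and GTTCTC (a 6mer match), on the sense strand and with each site counted once as its longest form. Of the 10 members, 1 (Axl) held a 7mer or 8mer match and 1 other (Mertk) a 6mer match. Among 11254 tested genes with an annotated 3′ UTR, 20.7% held a 7mer or 8mer match and 33.5% any of these matches. Both windows lie in the 3′ UTR and are printed with the match in capitals, Axl from chr7:25758420-25758449 (minus strand) and Mertk from chr2:128802711-128802740 (plus strand).
Axl, 8mer: aaggtttgagtttagagttcaaAGTTCTCA
Mertk, 6mer: cctgaggagtgatatttgatgctGTTCTCt
A match of letters is a description of the sequence and was not tested for binding.

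Total counts ran from 4071084 in resting 3′F replicate 3 to 19818043 in replicate 2 of 3′F with LPS. The cultures carried macrophage markers in every library, with Lyz2 between 26461 and 75160 CPM and Csf1r between 992 and 3936. CPM is read counts divided by the TMM-scaled size of the library, on the usual CPM scale. The 9 listed macrophage markers summed to 65046 to 67645 CPM in resting KO, 35463 to 52579 in resting WT and 47172.5 to 67744.5 in resting 3′F. With LPS the sums were 76467.5 to 93605.2 in KO and 49543.5 to 65764.4 in WT. In resting KO against WT, Csf1r, Fcgr1 and Aif1 were higher and Itgam lower (edgeR adjusted p under 0.05). Over all genes the shares were 5.12% and 4.27%. With LPS only Itgam differed, again lower. Their part in the receptor results was not tested. Summed over their lists, markers of B cells reached at most 2.34 CPM and of T and NK cells 3.14. Those of mast cells and basophils reached at most 0.702 and of stromal cells 5.43. The summed list of 7 osteoclast markers was higher, at 204 to 507 CPM, both ends in KO. Of its 5 tested genes, Dcstamp was lower in KO than in WT in both states and Acp5 higher with LPS (edgeR adjusted p under 0.05). The summed list of 11 neutrophil markers ran from 37.8 to 231 CPM and was highest in KO with LPS (161 to 231), most of it Csf3r, while the defining neutrophil gene Ly6g never exceeded 2 reads. The dendritic list was almost wholly Bst2, an interferon-induced gene, the endothelial list mostly Vwf, and the list for red cells and megakaryocytes almost wholly Pf4, with at most 3 reads of any hemoglobin gene in any library. Each of 2 libraries stood apart from its group. Compared over all genes as a chi-square per degree of freedom, resting KO replicate 3 differed from replicates 1 and 2 at 109 and 100.1, and resting 3′F replicate 3 from its replicates 1 and 2 at 63.13 and 57.79, where the other pairs within a group lay between 6.954 and 48.83. The summed level of 16 interferon-induced genes was 14118 CPM in resting KO replicate 3, against 794 and 593 in resting KO replicates 1 and 2, and 153 to 332 in the resting WT and 3′F libraries (242 in 3′F replicate 3). The summed level of genes of LPS activation (Nos2, Il1b, Tnf and others, 12 listed and 11 in the table) was 2794 CPM there, against 494 and 417 in the other resting KO libraries, 96.5 to 267 in the resting WT and 3′F libraries and 10424 to 37714 with LPS. Its interferon sum thus lay within the range of the LPS libraries (3509 to 19395 CPM) and its LPS activation sum between the resting and the LPS libraries, so that it is called resting here as its label does, and whether the culture met LPS was not tested. Results that rest on either library are given with and without it, save where the text says otherwise. The table lists protein-coding genes, so miR-146a itself was not analysed here.

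Compared per kb of exon, by the length the count table gives for each gene, the 10 receptors spanned much of the range of expression in these cells. Cd36 was the highest in 5 of the 6 groups, with 643 to 1139 CPM per kb as group means, above at least 99.35% of the genes tested. Msr1 followed in the resting state with 279 to 348 CPM per kb. Mrc1 (104 to 170) and Stab1 (83.5 to 133) came next, and Scarb1 (18 to 27.2) and Mertk (13.6 to 27.3) lay near each other. Marco changed place, from 13 to 30.1 CPM per kb at rest to 426 to 1286 with LPS, and in KO with LPS it was the highest of the 10. Axl (2.36 to 6.95), Cd163 (0.745 to 3.09) and Olr1 (0.43 to 4.72) were the lowest, so their values rest on few reads, 7 to 332 per library for Olr1, 16 to 209 for Cd163 and 48 to 436 for Axl.

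The LPS response asks how macrophages of each genotype reset their uptake receptors after 16 h of TLR4 stimulation. In WT, 4 of the 10 receptors were called higher (Marco, Olr1, Msr1 and Cd163) and none lower by the edgeR quasi-likelihood test at a Benjamini-Hochberg adjusted p under 0.05 over all genes. For comparison, 28.5% of all genes tested were called in WT, and 16.3% were called higher. The median log2 fold change of the 10 receptors was 0.60, against 0.02 over all genes tested. In bulk libraries a change in the share of cells that express a receptor and a change in RNA per cell cannot be told apart. The same 4 receptors were called higher in KO (26.9% of all genes called, 14.3% higher) and in 3′F (31.2% called, 17.2% higher). In 3′F, Cd36 was also called lower, as were 14% of all genes. Without resting KO replicate 3, Cd36 and Mrc1 were called lower in KO as well, and 6 of the 10 receptors were called. The share of all genes called in that fit is not reported here, so the larger count is not a result particular to the receptors.

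Gene positions below are those of GENCODE M21 in GRCm38. Marco (chr1:120474538-120505024, minus strand), a class A receptor that binds bacteria and particles, gave the largest change of the 10. In WT it measured 25.9, 11.4 and 37.8 CPM at rest and 674, 572 and 1212 with LPS. In KO it measured 28.5, 68.3 and 76.8 CPM at rest and 1277, 3861 and 2290 with LPS, and in 3′F 20.3, 27.7 and 43.1 at rest and 612, 1291 and 1184 with LPS. Every library with LPS lay above every resting library, by a wide margin. The log2 fold change was 5.04 ± 0.57 (SE) in WT, 5.42 ± 0.58 in KO and 5.11 ± 0.58 in 3′F, with edgeR adjusted p of 1.07e-05, 4.7e-06 and 8.69e-06.

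Msr1 (chr8:39581685-39642673, minus strand), the founding class A scavenger receptor, was already abundant and about doubled. In WT it went from 1204, 983 and 1212 CPM to 2527, 1937 and 2616. In KO it went from 1076, 1306 and 1853 CPM to 2575, 2830 and 2594, and in 3′F from 1434, 1165 and 912 to 2491, 2665 and 2113. Resting KO replicate 3 was the highest resting library, and no resting library reached the lowest library with LPS. On LPS the log2 fold change was 1.06 ± 0.20 in WT, 0.92 ± 0.20 in KO and 1.05 ± 0.20 in 3′F, with edgeR adjusted p of 0.000937, 0.0026 and 0.000934.

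Olr1 (chr6:129485244-129507165, minus strand), also known as LOX-1, started from a low level in WT and 3′F. In WT it measured 1.51, 0.828 and 2.51 CPM at rest and 9.14, 12.5 and 10.8 with LPS. In 3′F it measured 1.47, 1.51 and 1.64 CPM at rest and 20.3, 10.9 and 10.5 with LPS, and in KO 5.75, 5.96 and 6.4 at rest and 12.8, 24 and 13.8 with LPS. Within each genotype the resting and LPS libraries did not overlap, and the resting KO libraries lay between the resting and the LPS libraries of WT. The log2 fold change was 2.78 ± 0.35 in WT, 3.20 ± 0.36 in 3′F and 1.48 ± 0.30 in KO, with edgeR adjusted p of 3.05e-05, 9e-06 and 0.00172.

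Cd163 (chr6:124304656-124330527, plus strand), the receptor of the haptoglobin-hemoglobin complex, rose from a low level. In WT it measured 5.32, 3.01 and 1.93 CPM at rest and 9, 6.82 and 5.28 with LPS, so that the highest resting library lay just above the lowest one with LPS. In KO it measured 5.25, 4.74 and 4.94 CPM at rest and 13.4, 15.1 and 13 with LPS, and in 3′F 3.44, 2.84 and 3.75 at rest and 6.81, 6.24 and 5.39 with LPS. The KO libraries with LPS were the highest of the 18. The log2 fold change was 1.01 ± 0.27 in WT (edgeR adjusted p = 0.00991), 1.47 ± 0.26 in KO (0.00048) and 0.92 ± 0.28 in 3′F (0.0204). The WT call was lost without WT replicate 1 with LPS (log2 fold change 0.79, edgeR adjusted p = 0.0595), and the 3′F call without resting replicate 2 or without LPS replicate 1 or 2 (log2 fold change 0.80 to 1.00 over the 6 libraries left out in turn, edgeR adjusted p up to 0.078).

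**Figure D1:**
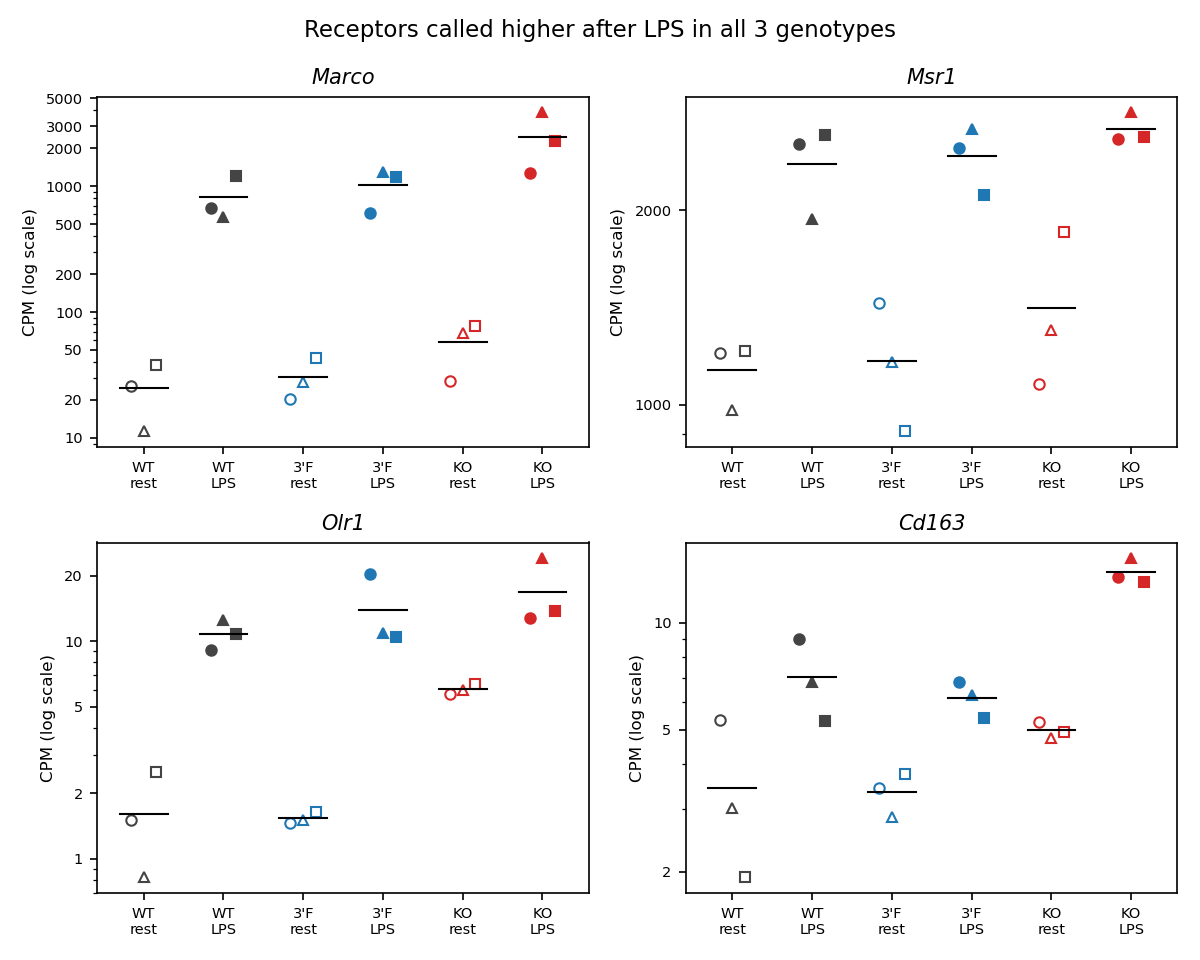
CPM on a log axis of Marco, Msr1, Olr1 and Cd163 in each of 18 libraries (open symbols resting, filled symbols with LPS, black, blue and red for WT, 3′F and KO; circle, triangle and square for replicates 1, 2 and 3; line, group mean). Marco rises from 11.4 to 76.8 CPM at rest to 572 to 3861 with LPS, and the resting KO points of Olr1 stand above the resting points of WT and 3′F.

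Of the lipid receptors of class B, Cd36 was called lower in 3′F and Scarb1 was not called. Cd36 (chr5:17781690-17888801, minus strand), which takes up oxidized LDL and fatty acids, measured 3152, 2772 and 3682 CPM in resting WT and 2537, 2173 and 3089 in WT with LPS. It went from 4266, 4516 and 3488 CPM to 2815, 2829 and 2046 in 3′F, and from 3287, 4438 and 2535 to 1906, 2494 and 2521 in KO. The groups overlapped in WT and did not in 3′F, nor, narrowly, in KO. The log2 fold change was −0.30 ± 0.21 in WT (edgeR adjusted p = 0.309), −0.67 ± 0.21 in 3′F (0.0223) and −0.57 ± 0.21 in KO (0.0539). The Cd36 call in 3′F was lost without resting replicate 1, resting replicate 2 or LPS replicate 3 (edgeR adjusted p up to 0.0995), and in KO Cd36 was called without resting replicate 3 (log2 fold change −0.74, edgeR adjusted p = 0.0091).

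Scarb1 (chr5:125277087-125341094, minus strand), the HDL receptor, was called in no genotype. It measured 48.3, 65 and 56.5 CPM in resting WT, 73.9, 70.9 and 66 in WT with LPS, 54.2, 53.7 and 37.8 in resting KO, 61.2, 66.4 and 62.1 in KO with LPS, 57, 65.1 and 35.4 in resting 3′F, and 68.4, 82.3 and 69.9 in 3′F with LPS. Libraries with LPS lay above the resting ones within each genotype, narrowly in WT, and the lowest values were those of replicate 3 in resting 3′F and resting KO. Its log2 fold changes of 0.31 ± 0.18, 0.38 ± 0.18 and 0.47 ± 0.18 in WT, KO and 3′F had edgeR adjusted p of 0.22, 0.141 and 0.0603, and without resting 3′F replicate 3 the value in 3′F was 0.23 (0.297).

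Mrc1 and Stab1, abundant endocytic receptors, were called in no genotype either, and in both resting KO replicate 3 went apart from its group. Mrc1 (chr2:14229392-14332057, plus strand), the mannose receptor, measured 1001, 856 and 882 CPM in resting WT and 714, 688 and 870 in WT with LPS, and 701, 892 and 950 in resting 3′F against 606, 613 and 589 with LPS. In KO it measured 799, 696 and 176 CPM at rest and 618, 537 and 536 with LPS. The value of 176 CPM was the lowest of the 18 libraries, and the next was 536 CPM. With it, the log2 fold change of Mrc1 in KO was 0.02 ± 0.34 (edgeR adjusted p = 0.978), and without it −0.41 (0.0323). The sign of the first value also turned negative, by less, under other scalings and tools. In WT and 3′F it was −0.27 ± 0.34 and −0.49 ± 0.34, neither called. The resting and LPS libraries of Mrc1 did not overlap in 3′F, as was so for 8 of the 10 receptors and 45.2% of all genes there.

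Stab1 (chr14:31139013-31168641, minus strand) measured 729, 626 and 899 CPM in resting WT, 741, 535 and 727 in WT with LPS, 705, 797 and 556 in resting 3′F and 603, 766 and 695 in 3′F with LPS. In KO it measured 1347, 1269 and 572 CPM at rest and 1033, 1101 and 896 with LPS. The groups overlapped in each genotype, and the log2 fold changes were −0.17 ± 0.25, 0.00 ± 0.25 and −0.07 ± 0.25 in WT, 3′F and KO, none called. Without resting replicate 3 the value in KO was −0.37 (edgeR adjusted p = 0.131).

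Of the apoptotic cell receptors with kinase activity, Mertk (chr2:128698956-128802894, plus strand) was called on LPS in no genotype. It measured 64, 62.3 and 69.6 CPM in resting WT, 68.2, 42.6 and 93.8 in WT with LPS, 61.2, 71.4 and 43.3 in resting 3′F and 44.3, 76.3 and 61.6 in 3′F with LPS. In KO it measured 98.7, 80.4 and 89.1 CPM at rest and 117, 92.8 and 142 with LPS. The resting and LPS libraries overlapped in every genotype, while all resting KO libraries lay above all resting libraries of WT and 3′F. The log2 fold changes on LPS were 0.06 ± 0.25, 0.04 ± 0.25 and 0.39 ± 0.25 in WT, 3′F and KO, and with 1 library left out in turn the WT value ran from −0.24 to 0.31.

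Axl (chr7:25757273-25788705, minus strand), the related kinase receptor that engages Gas6, is known as an inflammation- and interferon-induced gene. It measured 7.23, 10.8 and 12.3 CPM in resting WT, 18.1, 10.4 and 27 in WT with LPS, 8.81, 11.1 and 11.2 in resting 3′F and 21.6, 15.7 and 12.7 in 3′F with LPS. In KO it measured 21.4, 18.9 and 49 CPM at rest and 24, 28.8 and 27.2 with LPS. Only in 3′F did the resting and LPS libraries not overlap. WT replicate 2 with LPS, with the lowest Axl of the LPS libraries, also had the lowest interferon sum of them (3509 CPM, against 8112 and 19395 in the other WT libraries with LPS). Resting KO replicates 1 and 2, with Axl at 21.4 and 18.9 CPM, had interferon sums of only 794 and 593 CPM. Both had more Axl than WT replicates 1 and 2 with LPS. The log2 fold change on LPS was 0.88 ± 0.36 in WT, 0.71 ± 0.37 in 3′F and −0.15 ± 0.34 in KO, with edgeR adjusted p of 0.0792, 0.152 and 0.796. Without resting KO replicate 3 the value of Axl in KO turned positive, at 0.40 (edgeR adjusted p = 0.327). In WT, Axl was called without replicate 2 with LPS (log2 fold change 1.17, edgeR adjusted p = 0.0225), and over the 6 libraries left out in turn its value ran from 0.51 to 1.17.

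**Figure D2:**
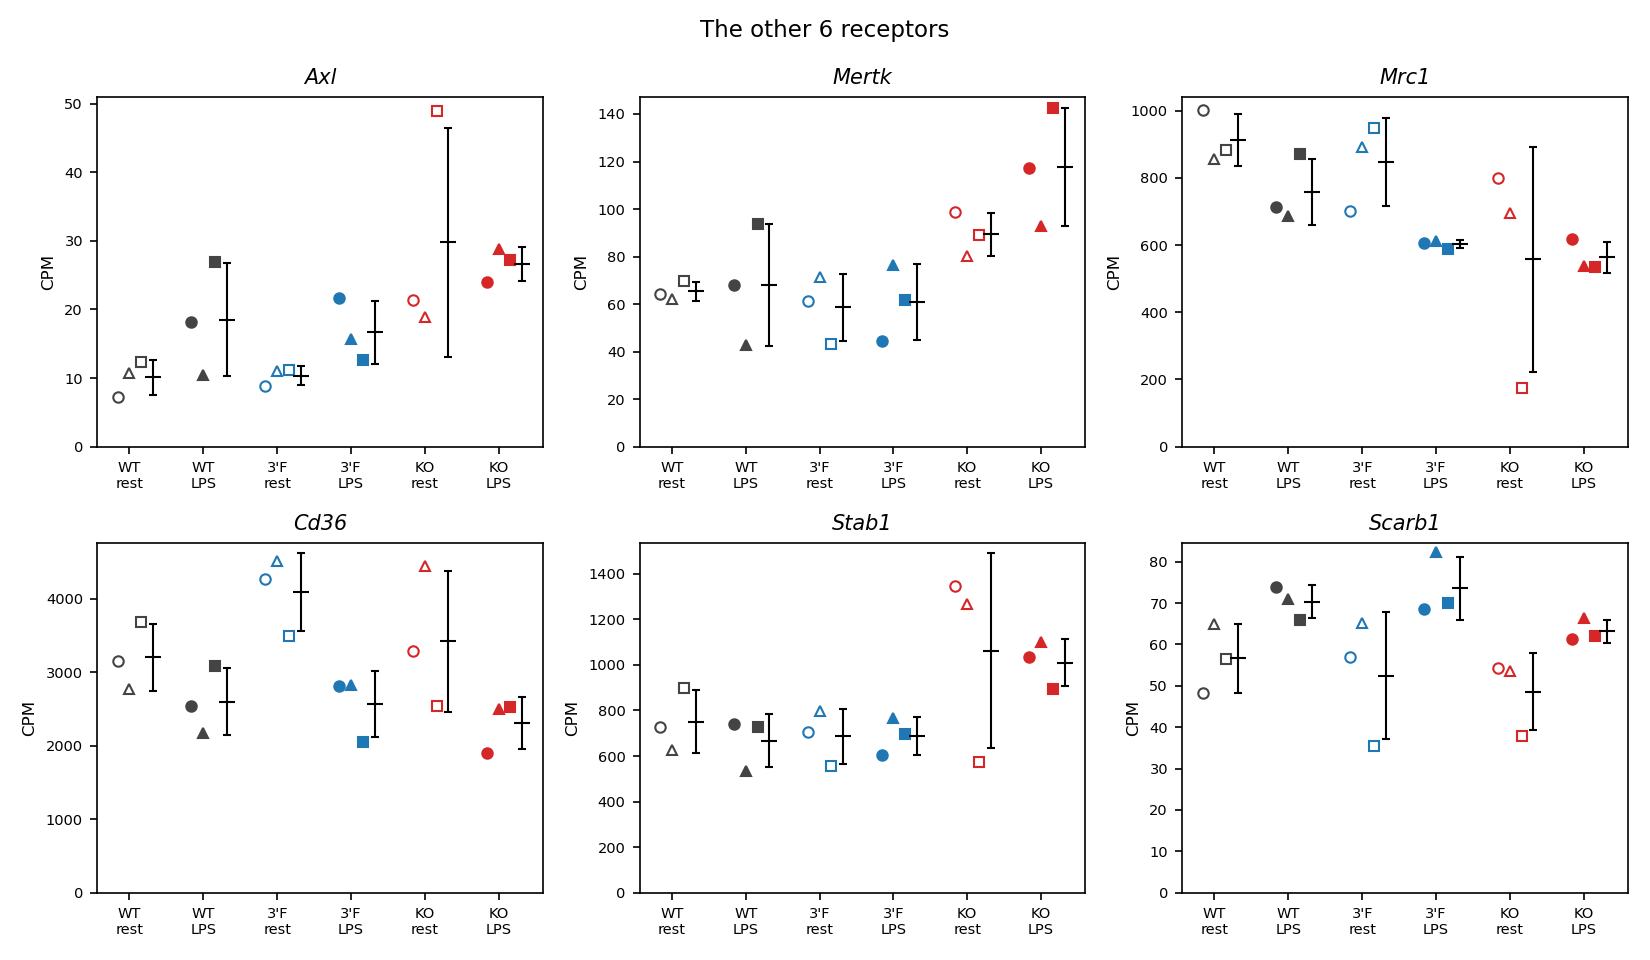
CPM of Axl, Mertk, Mrc1, Cd36, Stab1 and Scarb1 in each of 18 libraries (symbols and colours as for replicates and genotypes of the raised receptors: open resting, filled with LPS; black WT, blue 3′F, red KO; bar, mean ± SD of 3 libraries). Resting KO replicate 3, the open red square, is the highest Axl value at 49 CPM, the lowest Mrc1 value at 176 CPM, and far below the other resting KO libraries of Stab1.

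**Figure D3:**
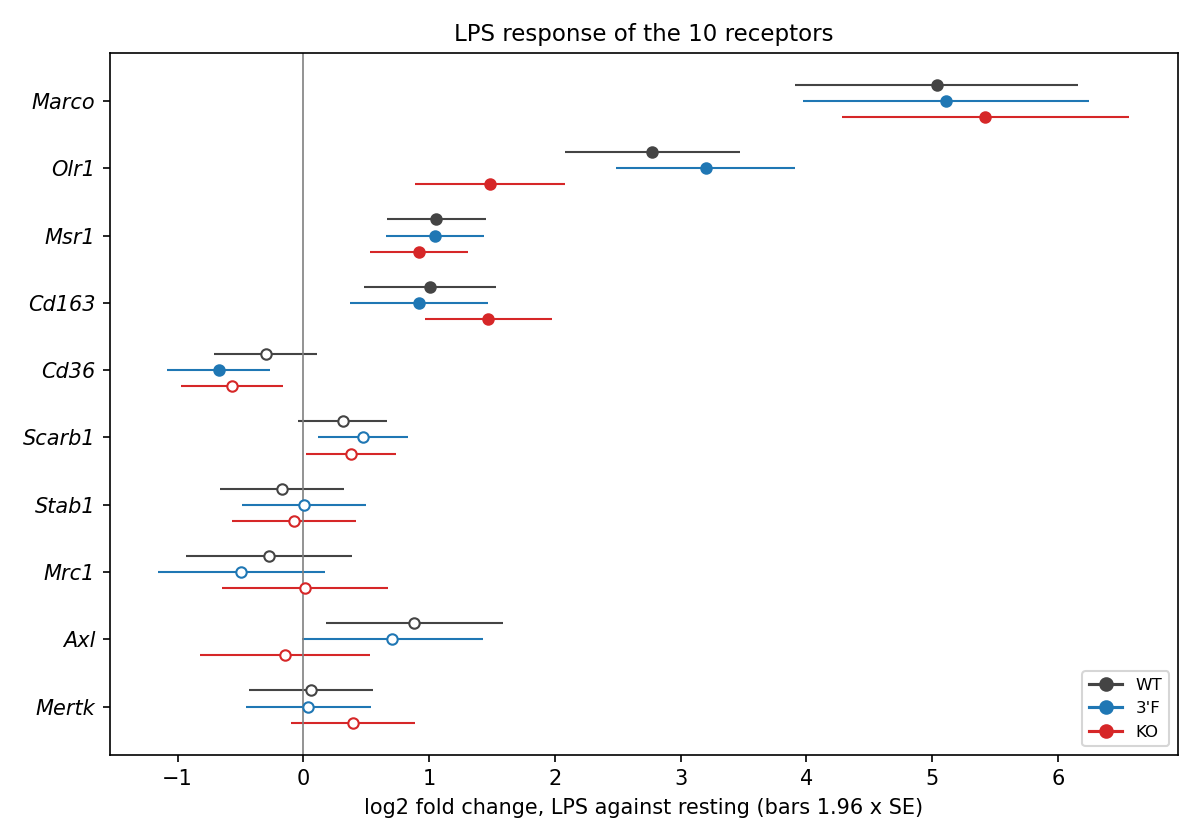
Log2 fold change of LPS against resting for the 10 receptors in WT (black), 3′F (blue) and KO (red), with bars of 95% intervals and filled symbols for an adjusted p under 0.05. Marco, Olr1, Msr1 and Cd163 are filled in all 3 genotypes and lie to the right of 0, and the points of the other receptors lie within 1 log2 unit of 0.

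The comparison of KO with WT asks how these receptors differ between mice with and without miR-146a. The paper reports enlarged spleens and more splenic myeloid cells in KO mice at about the labelled age. The part of the donors' state in these differences was not tested. At rest 2 of the 10 were called higher, Axl and Olr1, and none lower, where 9.4% of all genes tested were called and 5.12% were called higher. The median log2 fold change of the 10 was 0.48, against 0.02 over all genes. Without resting KO replicate 3 the count was also 2, with Olr1 and Stab1 called higher. The share of all genes called without that library is not reported here.

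Olr1 exceeded its resting WT level in resting KO by 1.93 ± 0.36 on the log2 scale (edgeR adjusted p = 0.00442). The lowest resting KO library, at 5.75 CPM, stood above the highest resting WT library, at 2.51 CPM. Without resting KO replicate 3 the difference was 1.90 (edgeR adjusted p = 0.0108), and it was called under each of 14 alternatives (other scalings, tools, filters and left-out libraries), with values from 1.61 to 2.34. Against resting 3′F, KO was higher by 1.99 ± 0.37 (edgeR adjusted p = 0.00602).

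Axl, the member with an 8mer seed match, exceeded its resting WT level in resting KO by 1.56 ± 0.36 (edgeR adjusted p = 0.0134), with no overlap between the libraries (4 of the 10 receptors and 26.8% of all genes did not overlap). The size of this difference owed much to resting KO replicate 3, and without it the difference was 1.01 (edgeR adjusted p = 0.0572). It also missed the threshold without resting WT replicate 1 or 2, with an adjusted p of at most 0.0677 over the 6 libraries left out in turn. Against resting 3′F, Axl was higher in KO by 1.52 ± 0.37 (edgeR adjusted p = 0.0157), and by 0.98 without resting KO replicate 3 (0.0609). In resting KO against WT, 15 of the 16 listed interferon-induced genes were called higher and none lower. The number was 10 without resting KO replicate 3, 9 without resting WT replicate 2, and 0 with the groups compared alone. All 3 resting KO libraries had a higher interferon sum (593 to 14118 CPM) than the resting WT libraries (153 to 332). The part of interferon-induced genes in the difference of Axl was not tested.

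**Figure D4:**
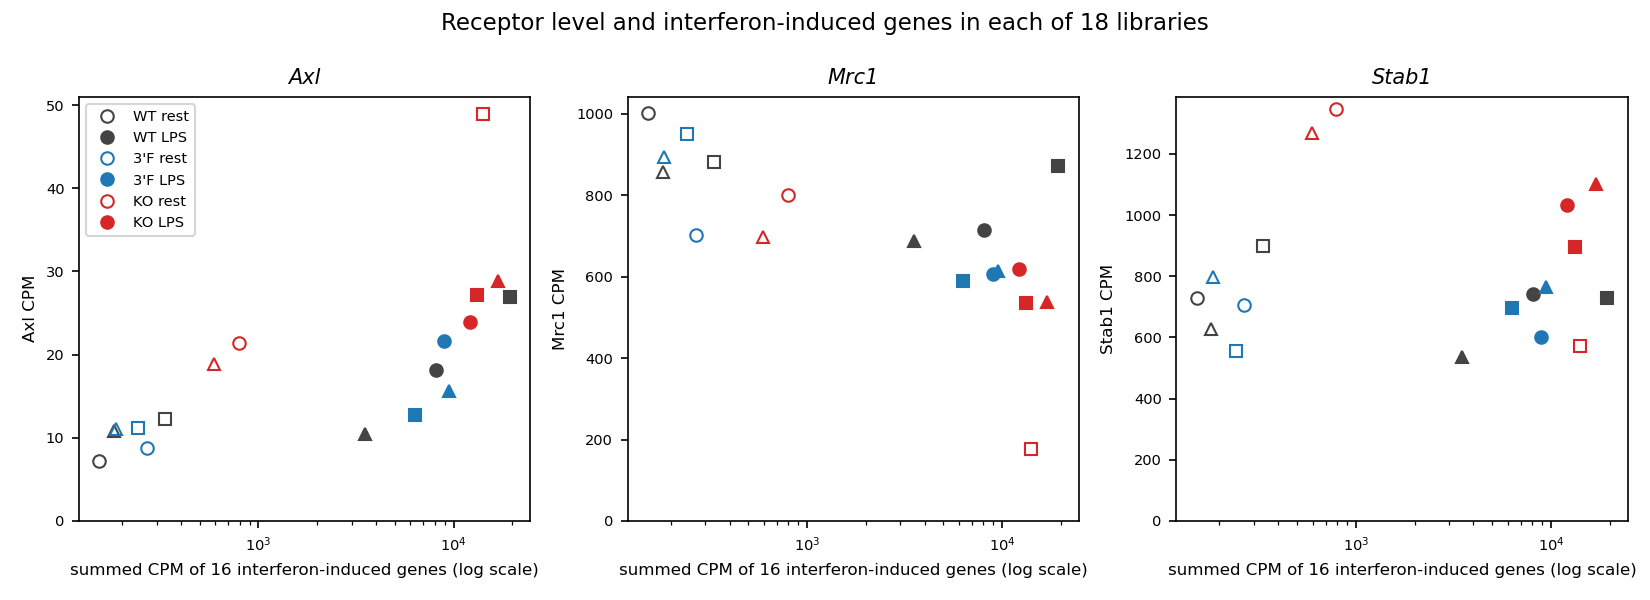
CPM of Axl, Mrc1 and Stab1 against the summed CPM of 16 interferon-induced genes (log axis) in each of 18 libraries (open resting, filled with LPS; black WT, blue 3′F, red KO; circle, triangle and square for replicates 1, 2 and 3). Resting KO replicate 3, at an interferon sum of 14118 CPM, lies among the LPS libraries on the horizontal axis and outside all of them in Axl and Mrc1.

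Mrc1 and Stab1 showed how far that library weighed in the resting comparison. Mrc1 was lower in resting KO by −0.71 ± 0.34 on the log2 scale, which was not called (edgeR adjusted p = 0.216), and by −0.29 without resting KO replicate 3 (0.26). Resting KO replicates 1 and 2, at 799 and 696 CPM, lay below the WT libraries as well. Stab1 differed by 0.50 ± 0.25 (edgeR adjusted p = 0.244) with all 3 libraries, and by 0.80 without resting KO replicate 3 (0.0159), where the remaining values of 1347 and 1269 CPM compare with 626 to 899 in WT. The other uncalled receptors had resting differences from −0.22 (Scarb1) to 1.21 (Marco), none with an edgeR adjusted p under 0.153. Cd163, at 0.51 ± 0.27, was called without resting WT replicate 1 (0.99, edgeR adjusted p = 0.0334).

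With LPS, 1 of the 10 receptors was called between KO and WT, Cd163, where 4.79% of all genes tested were called and 1.89% were called higher. Cd163 was higher in KO by 0.97 ± 0.25 on the log2 scale (edgeR adjusted p = 0.0346), at 13.8 ± 1.14 CPM (SD, n = 3) against 7.04 ± 1.87, with no overlap. The Cd163 difference stayed between 0.81 and 1.19 with any of the 6 libraries left out, but was called only without WT replicate 1, and the adjusted p reached 0.145. The summed neutrophil list was higher in the same comparison, at 161 to 231 CPM in KO against 77.3 to 134 in WT with LPS, and its part in the result was not tested.

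Several receptors were higher in KO with LPS by amounts that missed the threshold. Marco differed by 1.60 ± 0.49 (edgeR adjusted p = 0.0733), its lowest KO library (1277 CPM) above its highest WT library (1212 CPM). Mertk differed by 0.79 ± 0.25 (0.0859), with overlap, and was called without WT replicate 3 (0.0325). Stab1 differed by 0.60 ± 0.25 (0.214) and Olr1, called at rest, by 0.64 ± 0.29 (0.257), both without overlap. Axl differed by 0.53 ± 0.35 (0.483). Mrc1 was lower in every KO library than in every WT library with LPS, by −0.43 ± 0.34 (0.578). In this comparison 5 of the 10 receptors and 33% of all genes tested did not overlap between the groups. The median log2 fold change over the 10 was 0.56, against 0.01 over all genes.

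KO was also set against 3′F, whose miR-146a keeps the seed. KO cells still had the gene of miR-146b, with the same seed. From its small RNA data the paper proposes that miR-146b was raised in KO BMDMs, and it saw no such rise in 3′F. Its part in these differences was not tested. At rest Axl and Olr1 were called higher in KO and no receptor lower (12.9% of all genes called, 6.79% higher). Without resting KO replicate 3, Olr1 and Stab1 were called there, Stab1 at 0.93 (edgeR adjusted p = 0.00867). With LPS 2 of the 10 were called higher in KO, Cd163 by 1.16 ± 0.25 (edgeR adjusted p = 0.0183) and Mertk by 0.95 ± 0.25 (0.0477), where 3.88% of all genes were called and 1.51% higher. Cd163 measured 13 to 15.1 CPM in KO and 5.39 to 6.81 in 3′F, and Mertk 92.8 to 142 in KO and 44.3 to 76.3 in 3′F, neither with overlap, as for 5 of the 10 receptors and 34.3% of all genes. Both calls were near the threshold. The Cd163 call was lost on leaving out any 1 of 5 libraries (all but KO replicate 3, edgeR adjusted p up to 0.0902), and the Mertk call on leaving out any 1 of 5 (all but 3′F replicate 2, up to 0.208), although the differences stayed at 1.09 to 1.24 and 0.77 to 1.16. Leaving out resting 3′F replicate 3 kept the resting calls of Axl (1.57, edgeR adjusted p = 0.0372) and Olr1 (2.02, 0.0146). The comparisons of KO with WT and of KO with 3′F share the KO libraries.

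Between 3′F and WT, no receptor was called in either state by edgeR, DESeq2 or limma-voom, and 0 of the 10 had an unadjusted edgeR p under 0.05. Of all 11357 genes, 557 had such a p at rest and 106 with LPS. Over all genes tested, 0% were called at rest and 0.00881% (1 gene) with LPS. A miss of the threshold does not show equal levels, so 95% intervals from the SE are given. At rest the log2 difference was 0.03 for Axl (−0.70 to 0.77), −0.06 for Olr1 (−0.89 to 0.77), −0.10 for Cd163 (−0.66 to 0.47) and 0.35 for Cd36 (−0.05 to 0.76). With LPS the difference was 0.37 for Olr1 (−0.21 to 0.94), 0.33 for Marco (−0.61 to 1.27), 0.04 for Msr1 (−0.35 to 0.42) and −0.19 for Cd163 (−0.69 to 0.32). For Mrc1 it was −0.33 (−0.99 to 0.33), and Mrc1 was the one receptor of the 10 whose 3′F and WT libraries with LPS did not overlap (589 to 613 against 688 to 870 CPM), as 7.87% of all genes did not. The interval of Olr1 at rest ended below 1.93 and that of Axl at rest below 1.56, the sizes of their differences between KO and WT.

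Whether the LPS response itself differed was tested as an interaction. No receptor was called for KO against WT (0.00881% of all genes called) or for 3′F against WT (0% of all genes) by edgeR, DESeq2 or limma-voom. In the test of KO, 1 of the 10 had an unadjusted edgeR p under 0.05, as did 560 of all 11357 genes tested. That receptor was Olr1, whose response was smaller in KO by −1.29 ± 0.47 on the log2 scale (edgeR adjusted p = 0.764). Axl followed with −1.03 ± 0.50 (edgeR adjusted p = 0.997). Without resting KO replicate 3 the value of Axl was −0.49 and that of Olr1 −1.26. In the test of 3′F, 0 of the 10 had an unadjusted edgeR p under 0.05, against 203 of all 11357 genes.

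**Figure D5:**
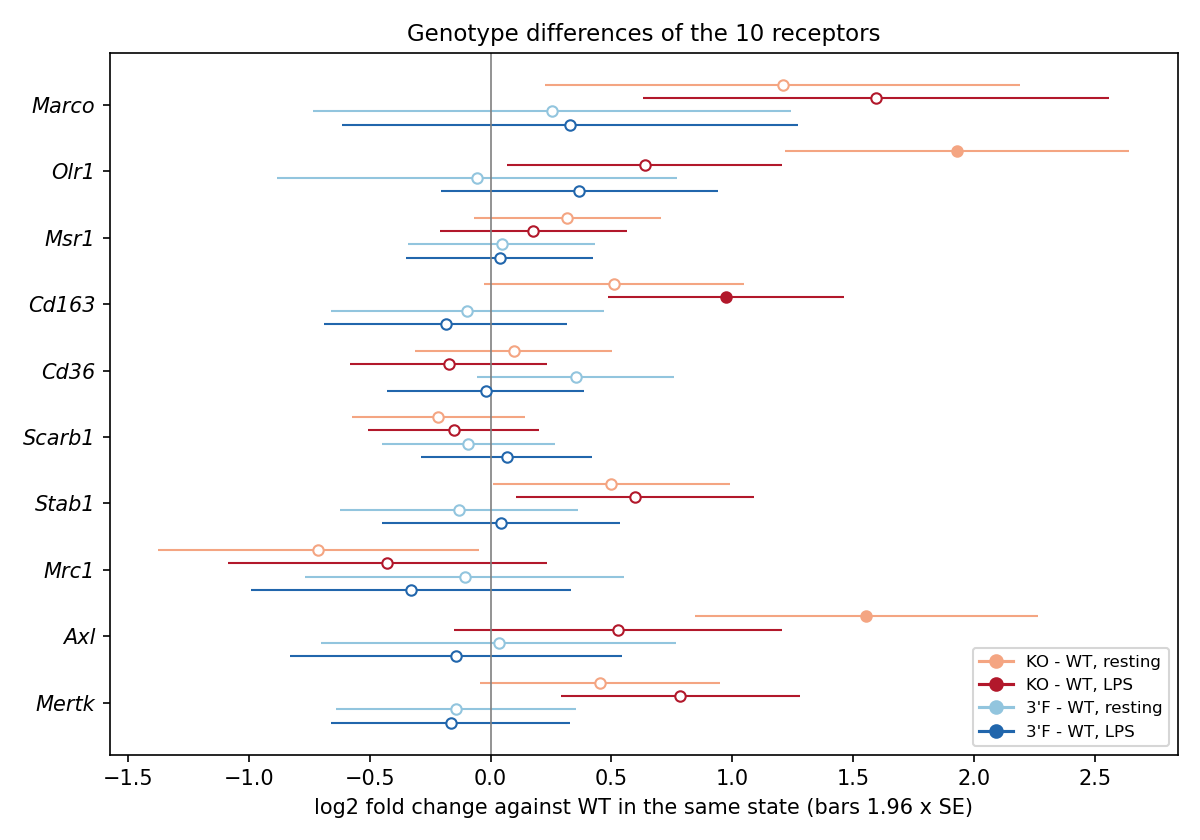
Log2 fold change against WT in the same state for the 10 receptors, KO at rest and with LPS (light and dark red) and 3′F at rest and with LPS (light and dark blue), with bars of 95% intervals and filled symbols for an adjusted p under 0.05. Filled symbols stand only at Olr1 and Axl in resting KO and at Cd163 in KO with LPS, and every blue interval crosses 0.

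The proteins that link uptake receptors to their cargo were read beside them. Of 11 bridging proteins, all tested, none was called higher and 4 lower on LPS in WT, where 12.3% of all genes were called lower. In resting KO against WT none was called higher and 3 lower (Mfge8, Edil3 and Anxa1), where 4.27% of all genes were called lower. Gas6, the ligand of Axl and Mertk, fell in WT from 379 ± 73 CPM (SD, n = 3) to 118 ± 28.1, a log2 fold change of −1.69 ± 0.21 (edgeR adjusted p = 2.96e-05). Pros1, the other ligand of Mertk, measured 49.5 ± 3.98 CPM at rest and 45.9 ± 10.4 with LPS. Tyro3, the third kinase receptor of the Axl family, had at most 2 reads in any library.

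Mfge8 and Edil3, secreted bridges between phosphatidylserine and integrins, differed between genotypes. Mfge8 measured 216 ± 13.5 CPM in resting WT, 246 ± 63.6 in resting 3′F and 106 ± 34 in resting KO, a log2 difference of −1.03 ± 0.25 between KO and WT (edgeR adjusted p = 0.0158), and it differed by −0.90 ± 0.24 with LPS (0.0461). Either Mfge8 call was lost on leaving out single libraries (at rest, replicates 1 and 2 of WT and 1 and 3 of KO, edgeR adjusted p up to 0.0577, and with LPS any of the 6, up to 0.184), with differences of −1.32 to −0.87 and −1.13 to −0.72. Edil3 fell from 39.4 ± 6.87 CPM in resting WT to 15.5 ± 4.25 with LPS (log2 fold change −1.34 ± 0.22, edgeR adjusted p = 0.000265), and was lower in KO by −1.51 ± 0.22 at rest (0.00138) and by −1.34 ± 0.23 with LPS (0.00382). The Edil3 calls held with each library left out.

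Of the 15 tested of 19 other apoptotic cell receptors, 3 were called higher and 7 lower on LPS in WT, with a median log2 fold change of −0.50. Over all genes tested, 16.3% were called higher and 12.3% lower in that comparison, with a median of 0.02. Itgb3, the integrin chain that binds Mfge8 and Edil3, fell from 19.4 ± 5.43 CPM to 3.21 ± 1.26 in WT (log2 fold change −2.59 ± 0.32, edgeR adjusted p = 2.39e-05). In resting KO it was lower than in resting WT by −1.21 ± 0.30 (0.0183), a call lost without replicate 1 of either genotype and without WT replicate 2 (edgeR adjusted p up to 0.087). Timd4, a phosphatidylserine receptor of resident macrophages, had 0 to 0.0967 CPM in resting WT and 0.535 to 4.04 in resting KO, and 0.0733 to 0.419 against 5.99 to 9.92 with LPS, and was called in both states. The WT levels stand for at most 1 read at rest and 6 with LPS per library, so the test of Timd4 rests on libraries outside WT. Against 3′F, Timd4 was called higher in KO with LPS and was not called at rest. The calls of Timd4 were not run under the alternatives or with libraries left out. In the engulfment machinery, 14 of 15 genes were tested. On LPS in WT, 4 of them were called higher (Rac2, Was, Atg5 and Rab5a) and 4 lower (Elmo1, Dock1, Dock2 and Rubcn), beside 16.3% and 12.3% of all genes. Of the proteases that shed such receptors from the surface, and their cofactors, 4 of 5 were tested, and Adam17 and Rhbdf2 were called higher and Adam10 lower on LPS in WT.

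Among 11 tested of 17 further scavenger receptors, 2 were called higher (Cxcl16 and Scarf1) and 1 lower (Lrp1) on LPS in WT. The shares over all genes tested were 16.3% higher and 12.3% lower. Cxcl16, a transmembrane chemokine that also binds oxidized lipoprotein, went from 151 ± 29.7 to 488 ± 65.9 CPM (log2 fold change 1.70 ± 0.14, edgeR adjusted p = 4.88e-07) and was higher in resting KO than in WT by 0.91 ± 0.14 (0.00162).

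Of 17 transcriptional regulators of these receptors, all tested, 5 were called higher and 4 lower on LPS in WT, beside 16.3% and 12.3% of all genes. Pparg, an activator of Cd36, fell from 31.8 ± 4 to 6.44 ± 0.467 CPM (log2 fold change −2.30 ± 0.25, edgeR adjusted p = 6.55e-06). Cd36 changed in WT by −0.30 ± 0.21, which was not called. With LPS, Pparg was lower in KO than in WT by −1.18 ± 0.28 (0.0235), a call lost on leaving out any 1 of 5 libraries (all but WT replicate 1, edgeR adjusted p up to 0.128). Nr1h3, the oxysterol receptor LXRα that drives Mertk, rose from 10.6 ± 2.9 to 34 ± 8.11 CPM (log2 fold change 1.69 ± 0.35, edgeR adjusted p = 0.00181). Mertk changed in WT by 0.06 ± 0.25, which was not called. Whether these regulators acted on Cd36 or Mertk here was not tested. Nr1h3 was higher in resting KO by 1.15 ± 0.35 (0.0493), and by 0.60 without resting KO replicate 3, where it was not called. Leaving out any 1 of the resting WT libraries also ended the call, with an edgeR adjusted p of at most 0.251.

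Mrc1, Cd163 and Msr1 are often counted among the markers of alternatively activated macrophages. Of 14 other such markers, 10 were tested, and on LPS in WT Arg1, Ccl24 and Il4ra were called higher and Clec10a lower, with a median log2 fold change of 1.32. Over all genes tested, 16.3% were called higher and 12.3% lower there, with a median of 0.02. Between KO and WT, 3 were called higher at rest (Ccl24, Timd4 and F13a1) and 2 with LPS (Timd4 and F13a1), and none lower. Of all genes tested, 5.12% were called higher at rest and 1.89% with LPS.

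The genes whose log2 CPM ran most like a receptor over the 18 libraries were found among 10260 genes, as a description, since libraries share group and state. All 18 libraries entered, with resting KO replicate 3, which had the lowest Mrc1 (176 CPM) and the highest Axl (49 CPM). The correlations were not run without it, so those of Mrc1 and Axl may rest on that library. Stab1 ran with C1qc (Pearson r = 0.959), a chain of the opsonin C1q, and Mertk with Maf (0.943), a macrophage transcription factor. Mrc1 ran with Acsl3 (0.929) and Elovl6 (0.884), which activate and elongate fatty acids. Marco ran with Slc31a2 (0.984) and Acp5 (0.983), a gene of the osteoclast list. Msr1 ran with Cd274 (0.978), Olr1 with Gsap (0.971) and Clmp (0.971), and Cd163 with Rrad (0.942). Axl ran with Ptk2 (0.916) and Elf1 (0.915), and Cd36 with Arih1 (0.917). Among the 10 receptors themselves, the most alike were Marco and Msr1 (0.932) and Marco and Olr1 (0.908), and the best partner of Cd36 and of Mrc1 was the other of the pair, at 0.398.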

How the data were processed

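Strand-specific libraries were prepared from BMDM RNA after ribosomal RNA depletion. As the authors' methods state, the deposited values are raw counts of reads per protein-coding gene: reads were trimmed with cutadapt 1.8.3, aligned to mm10 with HISAT2 2.1.0 after removal of ribosomal DNA reads, and counted on Gencode M15 genes with featureCounts 1.5.3, strand-aware. Each of the 18 libraries kept its own column, and the table also lists each gene's exon length in bases.

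Groups were taken from the labels. Counts were tested with edgeR 4.0.16 (R 4.3.3): genes with low counts were dropped by the default filter for the 6 groups, libraries were scaled by TMM, and a quasi-likelihood model with 1 coefficient per group was fitted to all 18 libraries. The 11 comparisons used Benjamini-Hochberg adjustment over all genes tested, with calls at 0.05. Errors of log2 fold changes are standard errors, and 95% intervals take a normal approximation. Alternatives were upper-quartile and relative log expression scaling, no filter, DESeq2 1.42.0, limma-voom with quality weights (limma 3.58.1), the compared groups alone, each library left out, 2 libraries left out, and a replicate block. The procedure was tested on simulated data.

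All 10 receptors are reported, with ligands, other receptors, engulfment genes and regulators in lists. Of each list up to 4 genes with the largest change were to be named, as were Gas6, Pros1, Mfge8, Tyro3, Nr1h3 and Pparg. Other called genes of short lists were named after their values were seen. The members and lists were chosen with earlier results of these data known. The genes most like Scarb1 are not reported here.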

Additional observations from a re-analysis of the deposited data

How the results depend on the processing

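The calls of Marco, Msr1 and Olr1 on LPS in each genotype, of Cd163 on LPS in KO, and of Olr1 in resting KO against WT and 3′F passed the threshold under every alternative run. Over the 20 calls of receptors, 240 of 273 alternative values stayed called, 33 missed the threshold and 0 changed direction. On LPS, the number of the 10 receptors called in KO was 7 with resting KO replicate 3 and resting 3′F replicate 3 both left out (4 with all libraries), and in 3′F 8 by limma-voom (5 by edgeR). In resting KO against WT the number was 4 by limma-voom and 1 with the groups compared alone, against 2, and ranged from 1 to 2 with each library left out (1 without WT replicate 2). With LPS it was 2 without the filter, 3 by DESeq2, 4 by limma-voom and 3 with the groups alone, against 1, and 0 to 1 with each library left out. In KO against 3′F it was 4 by limma-voom and 1 with the groups alone at rest, against 2, and with LPS 1 under relative log expression or upper-quartile scaling and 5 with the groups alone, against 2, and 0 to 1 with each library left out. The share of all genes called under each alternative is not reported here. The counts in this section thus do not show a change particular to the receptors.

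Whether the replicate numbers pair the samples was not settled. The deviations of the resting and LPS library of 1 number correlated at −0.0145 to 0.386 within genotypes. This exceeded the best value with another number for WT replicates 2 (0.319 against −0.0275) and 3 (0.333 against 0.021). The same held for KO replicate 1 (0.386 against −0.0943) and 3′F replicates 2 (0.386 against −0.179) and 3 (0.186 against 0.086). It did not hold for WT replicate 1, KO replicates 2 and 3 and 3′F replicate 1. With a replicate block the number called with LPS was 2 for KO against WT and 1 for KO against 3′F. On LPS the block also called Axl in WT (0.78, edgeR adjusted p = 0.0383) and Mrc1 in 3′F (−0.51, 0.0494), which made 5 and 6 receptors against 4 and 5. The log2 fold change of Mrc1 on LPS in KO, 0.02, turned negative under relative log expression scaling (−0.03093), upper-quartile scaling (−0.1344), no filter (−0.05418), DESeq2 (−0.03058), limma-voom (−0.2968), the groups alone (−0.04138) and with both libraries left out (−0.4843), and ran from −0.4082 to 0.3684 with each library left out. That of Stab1, −0.07, ran from −0.3737 to 0.1336. The causes of these changes were not tested. Olr1, Cd163 and Axl rest on few reads, and resting 3′F replicate 3, the shallowest library, held 7 reads of Olr1.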
